A study of Mus musculus with 2 samples.

Results

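The genes described here encode the early secretory pathway of the cell, from the protein channel of the endoplasmic reticulum (ER) to the coats and tethers of the Golgi. They were taken by name: every row whose gene symbol starts with one of the stems of the translocon, signal recognition, signal peptidase, COPI, COPII, Arf, adaptor, p24, golgin, lectin receptor or ER-Golgi SNARE families. This gave 117 of 23793 rows, for 116 symbols (one symbol, *Srp54b*, has 2 rows). The stems also took in 5 Sec14-like lipid transfer proteins and *Sec1*, a fucosyltransferase gene, which are no part of the transport machinery and are given apart. *Sar1b*, which the rule leaves out, is given with other genes of the pathway.

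Messenger RNA was measured in small-intestinal organoids, which are epithelial cultures grown in a gel from crypts of ChgA-GFP reporter mice, in medium with epidermal growth factor, noggin and R-spondin. Dissociated cells were sorted by fluorescence into a GFP+ fraction, in which the chromogranin A reporter marks enteroendocrine cells, and a GFP- fraction, which holds the remaining epithelial cells. From each fraction 1 library was made from amplified polyadenylated RNA, so that there is no replicate, no test and no p-value for any difference below. The sources used here do not give the number or age of the mice, or whether cultures were pooled.

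In secretory cells, proteins with a signal sequence are brought to the ER by the signal recognition particle, threaded through the Sec61 channel and trimmed by signal peptidase. COPII-coated vesicles then carry them towards the Golgi, p24 and lectin receptors help to load them, and COPI-coated vesicles return escaped ER proteins that KDEL receptors have caught. Golgins tether the vesicles, Arf GTPases recruit coats, and the adaptor complexes AP-1 and AP-3 sort cargo from the trans-Golgi and endosomes. In neuroendocrine cells this route ends in dense-core granules, and in the brain AP-3 also exists in a neuronal form built with its own beta and mu subunits, encoded by *Ap3b2* and *Ap3m2*.

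Levels are given as FPKM, which counts fragments per kilobase of transcript and scales them to the size of the library. Differences are log2((FPKM + 1) in GFP+ / (FPKM + 1) in GFP-), so that a positive one means higher in GFP+. A gene entered the comparison if either library reached 1 FPKM, which 105 of the 116 members and 11868 symbols in all did. Of the 105, 5 were below 1 FPKM in the other library (*Ap3b2*, *Tmed8*, *Golgb1*, *Ap3m2* and *Sec61g*), so that the filter alone fixed the sign of their difference. A gene was called when it differed by at least 2-fold on this scale, a rule of size. The libraries matched their labels: of 11 enteroendocrine markers, 9 had an estimate in both libraries and all 9 were at least 4-fold higher in GFP+, among them *Tph1*, the serotonin synthesis enzyme, at 1359 FPKM in GFP+ against 17.5 in GFP-. *Chga* and *Chgb* had no estimate in GFP+ (status HIDATA, which is not a value of 0), so they could not be compared. Both had an estimate in GFP-, *Chga* at 133 FPKM and *Chgb* higher. Transcripts of enteroendocrine markers were thus also present in GFP-. All 10 Paneth cell markers were at least 4-fold lower in GFP+, with summed levels of 1135 FPKM in GFP+ against 18442 in GFP-, and 4 of 8 goblet cell markers were at least 2-fold lower (a sum of 1362 FPKM in GFP+ against 3200 in GFP-). Of 6 compared markers of non-epithelial cells, 5 were at least 2-fold higher, with *Vim* at 237 FPKM in GFP+ against 4.90 in GFP-, while *Ptprc* was at 0.0224 FPKM in both. Markers of tuft (4 of 5), stem (4 of 5) and proliferating cells (5 of 7) were mostly 2-fold lower, and of 9 enterocyte markers 2 were higher and 3 lower. In such bulk fractions, fewer cells of a type and less RNA per cell cannot be told apart, and the part of these cell types in the differences below was not tested.

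The promoters of *Ap3b2*, *Tmed8*, *Sec16a* and *Sec16b* are shown first, because these are the members at least 4-fold higher in GFP+ for which the RefSeq promoter table holds an entry. The promoter of *Ap3b1*, the paralogue of *Ap3b2* that was at like levels in both libraries, stands beside them. Each runs from 250 bases before to 50 bases after the start of the gene (RefSeq, GRCm38.p6, the assembly of mm10), 5′ to 3′ on the strand of the gene, and for *Sec16b* at the start that matches the deposited locus. Capitals mark matches to the motifs searched.
Ap3b2 (chr7:81493876-81494175, minus strand): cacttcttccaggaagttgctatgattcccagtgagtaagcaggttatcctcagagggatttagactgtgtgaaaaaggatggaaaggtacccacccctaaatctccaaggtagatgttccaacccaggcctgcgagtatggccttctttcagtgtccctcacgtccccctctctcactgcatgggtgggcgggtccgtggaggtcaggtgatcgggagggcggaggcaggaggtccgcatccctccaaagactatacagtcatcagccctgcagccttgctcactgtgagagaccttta
Ap3b1 (chr13:94358710-94359009, plus strand): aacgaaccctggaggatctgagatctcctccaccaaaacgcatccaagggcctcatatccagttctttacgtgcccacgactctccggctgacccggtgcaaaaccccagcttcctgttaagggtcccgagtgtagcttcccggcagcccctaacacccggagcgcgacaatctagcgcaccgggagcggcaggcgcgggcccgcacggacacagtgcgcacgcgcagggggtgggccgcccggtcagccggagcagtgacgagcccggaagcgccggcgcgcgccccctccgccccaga
Tmed8 (chr12:87200180-87200479, minus strand): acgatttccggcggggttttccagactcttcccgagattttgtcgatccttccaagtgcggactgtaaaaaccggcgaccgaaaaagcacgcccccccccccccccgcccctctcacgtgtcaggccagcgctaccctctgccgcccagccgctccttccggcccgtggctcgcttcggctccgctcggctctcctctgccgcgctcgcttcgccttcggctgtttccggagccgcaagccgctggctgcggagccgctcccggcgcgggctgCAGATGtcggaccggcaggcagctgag
Sec16a (chr2:26445167-26445466, minus strand): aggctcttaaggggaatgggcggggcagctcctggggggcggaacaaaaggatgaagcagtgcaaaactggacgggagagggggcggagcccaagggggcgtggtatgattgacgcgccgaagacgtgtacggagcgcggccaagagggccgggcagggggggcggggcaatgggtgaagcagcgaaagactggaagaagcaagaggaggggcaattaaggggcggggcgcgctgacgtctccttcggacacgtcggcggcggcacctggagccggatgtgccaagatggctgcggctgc
Sec16b (chr1:157506546-157506845, plus strand): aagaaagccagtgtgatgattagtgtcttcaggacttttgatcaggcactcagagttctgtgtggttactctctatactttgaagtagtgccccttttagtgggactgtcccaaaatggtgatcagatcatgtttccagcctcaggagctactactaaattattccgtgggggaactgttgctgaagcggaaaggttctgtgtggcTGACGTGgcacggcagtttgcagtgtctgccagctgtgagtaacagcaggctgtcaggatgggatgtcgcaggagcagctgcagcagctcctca

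The AP-3 beta pair differed in base composition. The *Ap3b2* promoter held 54.3% G and C and 7 CpG dinucleotides, and that of *Ap3b1* held 67.7% and 32, against medians of 52.7% and 7 over the 32851 promoters of the table. Both strands were searched for 6 motifs, of which TGACGTG and the cAMP response element TGACGTCA share their first letters, TGACGT. The *Sec16b* promoter held TGACGTG, the core of the unfolded protein response element, 44 bases before the start, and that of *Tmed8* held CAGATG, an E-box of the kind NeuroD proteins bind, 23 bases after it. No match to any of the 6 was in the *Ap3b2*, *Ap3b1* and *Sec16a* windows. TGACGTG was in 10 of the 108 promoters of the 97 members in the table (9.26%) and in 2.01% of all promoters. These 10 belong to *Arf1*, *Copb1*, *Copb2*, *Golga1*, *Kdelr3*, *Sec16b*, *Sec23a*, *Sec24d* and *Srpr*, whose differences ran from -0.56 for *Kdelr3* to 2.05 for *Sec16b*. Member promoters had a median of 59.8% G and C and 20 CpG dinucleotides, and the part of base composition in this share was not tested. The E-box was in 8.33% of member promoters and 17.2% of all, TATAAA in 1.85% and 13.6%, and TGACGTCA in 2.78% and 1.79%. The ER stress element, sought by its full consensus, was in 0 of the 108 and in 0.119% of all, and the core of the RE1 neuronal silencer element in 0 and 0.0365%. A match is a string of letters and no evidence of binding.

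These genes were well expressed in both fractions, with medians of 41.2 FPKM in GFP+ against 43.3 in GFP-. Over all compared genes the medians were 12.9 FPKM in GFP+ against 13.0 in GFP-. They made up 1.66% of the summed FPKM in GFP+ and 1.36% in GFP-. These sums, and the common total used below, leave out the 5 rows without an estimate in GFP+, *Chga* and *Chgb* among them. At least 2-fold higher in GFP+ were 15 of the 105, or 14.3%, where 20.1% of all compared genes were, and at least 2-fold lower were 11, or 10.5%, against 23.1%. At least 4-fold higher were 7 members (6.67%, against 7.09% of all genes) and 0 were 4-fold lower (4.59% of all genes). The median difference was -0.17 over the members and -0.12 over all genes. With the median ratio of well-expressed genes set to 0 (they stood at -0.50 as deposited), the split became 27 higher (25.5%, against 30.2%) and 3 lower (2.83%, against 12.5%), and with both libraries brought to a common total, a shift of 0.62, it became 34 higher (32.1%, against 33.3%) and 1 lower (0.943%, against 10.4%). Each of these scalings gave 12 members at least 4-fold higher (11.3%, against 10.8% of all genes with the median ratio at 0 and 11.8% with a common total). With a pseudocount of 5, 14 members were 2-fold higher (13.3%, now above the 10.1% of all genes), 7 were 2-fold lower (16.9% of all genes) and 3 were 4-fold higher (2.97%). A larger pseudocount shrinks the differences of low genes most, and the members were better expressed than all genes. The part of expression level in this share was not tested. Among the 82 members with at least 10 FPKM in each library, 4 were 2-fold higher (4.88%, against 7.60% of such genes) and 0 were 4-fold higher (1.78%). Of the 11 lower members, *Srp19*, *Sec13* and *Arf6* kept the call with the median ratio at 0, *Arf6* with a common total, and *Sec22a* and *Gorasp1* in the length scaling described below. At the lower edge of the rule, *Srp9* was inside at -1.001 and *Copz1* outside at -0.95. At the upper edge *Sec63* was inside at 1.26 and *Gosr1* outside at 0.89.

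**Figure D1:**
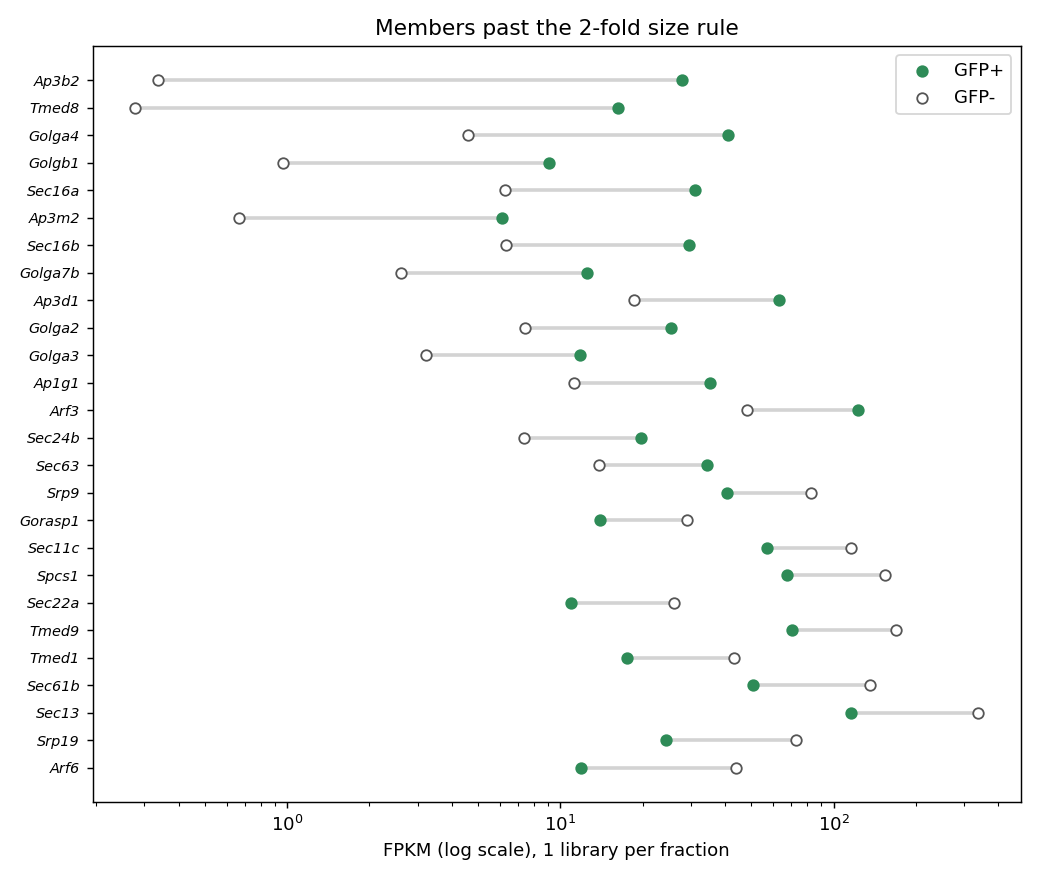
FPKM of the 26 members past the 2-fold rule (log axis), with GFP+ as filled and GFP- as open circles, 1 library each, ordered by their difference on the log2(FPKM + 1) scale. *Ap3b2* and *Tmed8* have the widest gaps, *Ap3b2* at 27.8 FPKM in GFP+ against 0.337 in GFP- and *Tmed8* at 16.3 FPKM in GFP+ against 0.277 in GFP-.

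The differences of these genes moved with transcript length, and this touches every group below. Among the 105 members, Spearman's rho between the difference and the length of the longest annotated transcript was 0.73 (Pearson r 0.66 on log2 length), and over all 11154 compared genes with a length it was 0.46 (r 0.37). These are correlations over genes of the same 2 libraries, given as a description. Of the 30 members with transcripts below 2 kb none was above 0, and of the 10 members of 6 kb or longer 9 were. Over all genes 18.8% below 1 kb, 23.3% from 1 to 2 kb and 81.0% at 6 kb or longer were above 0. The medians of all genes followed the same order, from -1.24 below 1 kb to 0.88 at 6 kb or longer. In the lowest band 59.0% of all genes were at least 2-fold lower and in the highest 44.2% were at least 2-fold higher. The part of transcript length in each result was not tested. As a further scaling, chosen after seeing the data, the median of all compared genes was set to 0 in each of 20 classes of length. Then 10 members were at least 2-fold higher (9.52%, against 18.4% of all genes) and 5 lower (4.76%, against 14.2%), and the member median was 0.27. All 10 were among the 15 called as deposited, but only 2 of the 5 were among the 11. Values on this scale are called length-centred below.

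**Figure D2:**
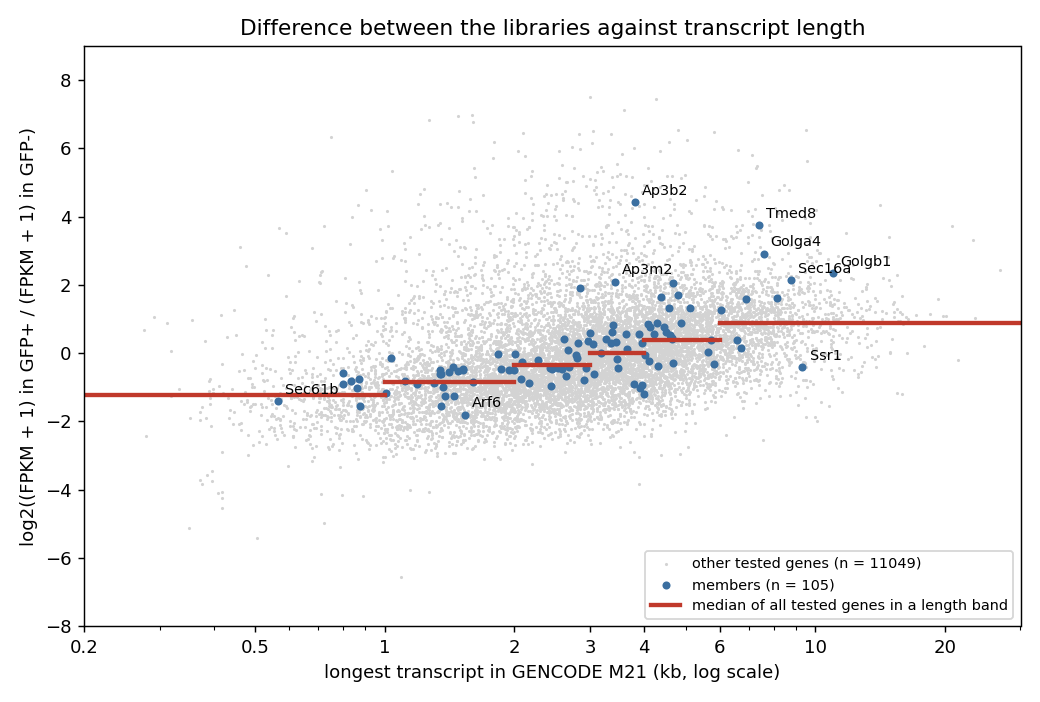
Difference between the GFP+ and GFP- library against the longest annotated transcript (log axis) for 105 members (blue) and the other compared genes (grey), with red lines at the median of all genes in each of 6 length bands. Members climb with the band medians, from -1.24 below 1 kb to 0.88 at 6 kb or longer, while *Ap3b2* at 4.43 and *Tmed8* at 3.76 lie far above theirs.

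Targeting to the ER came first in the pathway, and here no gene of the signal recognition particle or its receptor was 2-fold higher as deposited, although *Srp72* and *Srpr* were under both rescalings of the libraries. *Srp19*, a subunit that helps to assemble the particle, was at 24.4 FPKM in GFP+ against 73.0 in GFP- (-1.54), and *Srp9*, which with *Srp14* forms the domain that slows translation, was at 40.7 FPKM in GFP+ against 82.4 in GFP- (-1.001). Both have short transcripts (0.876 and 1.37 kb), and length-centred they stood at -0.26 and -0.11. *Srp14* was at 61.9 FPKM in GFP+ against 93.5 in GFP- and *Srp68* at 52.0 FPKM in GFP+ against 70.5 in GFP-. Above 0 were the large scaffold subunit *Srp72* (49.4 FPKM in GFP+ against 33.1 in GFP-, 0.56) and *Srpr*, the receptor alpha subunit, which had the highest level of the group in GFP+ (105 FPKM, against 69.9 FPKM in GFP-, 0.58). The receptor beta subunit *Srprb* was at 26.6 FPKM in GFP+ against 40.9 in GFP-. *Srp54*, the subunit that binds the signal sequence, has several near-identical copies in the mouse, and its rows summed to 2.52 FPKM in GFP+ against 2.21 in GFP- for *Srp54b*, most of it from a row that lies where RefSeq places *Srp54c*. *Srp54a* was below 1 FPKM in both libraries. The sources used here do not say how reads shared by these copies were counted, so their levels are uncertain.

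The Sec61 channel itself differed little in its pore and more in its beta subunit. The pore gene *Sec61a1* was at 220 FPKM in GFP+ against 217 in GFP- (0.02), and its copy *Sec61a2* at 8.54 FPKM in GFP+ against 12.0 in GFP-. The beta subunit gene *Sec61b* was at 50.9 FPKM in GFP+ against 136 in GFP- (-1.40), and with a transcript of 0.564 kb it stood at -0.12 length-centred. *Sec63*, which brings the lumenal chaperone BiP to the channel, went the other way at 34.5 FPKM in GFP+ against 13.8 in GFP- (1.26, or 0.70 length-centred), while its partner *Sec62* was at 19.7 FPKM in GFP+ against 15.9 in GFP-. *Sec61g*, the third subunit of the channel, was listed at only 0.952 FPKM in GFP+ against 1.69 in GFP-, far below its partners in both. The handling of multiply mapping reads is not given, and its part in these low values was not tested, so the level of *Sec61g* is uncertain.

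Among the TRAP genes, which assist translocation beside the channel, *Ssr2* was at 206 FPKM in GFP+ against 388 in GFP- and *Ssr4* at 115 FPKM in GFP+ against 215 in GFP-, with differences of -0.91 and -0.89 short of the rule. *Ssr3* was at 121 FPKM in GFP+ against 95.1 in GFP-, and *Ssr1* at 30.4 FPKM in GFP+ against 40.3 in GFP-. Length-centred, *Ssr1* stood at -1.38, past the rule, but its longest transcript of 9.33 kb need not be the one used in these cells. All 5 signal peptidase genes were below 0 as deposited, and 3 of the 5 under each of the other scalings. Their median transcript length was 1.34 kb. As deposited 46.2% of all compared genes were above 0, and 23.3% of those from 1 to 2 kb. *Spcs1* was at 67.5 FPKM in GFP+ against 154 in GFP- (-1.18), and the catalytic subunit *Sec11c* at 56.9 FPKM in GFP+ against 116 in GFP- (-1.01). The other catalytic subunit *Sec11a* was at 102 FPKM in GFP+ against 143 in GFP-, *Spcs2* at 76.1 FPKM in GFP+ against 133 in GFP- and *Spcs3* at 76.7 FPKM in GFP+ against 86.7 in GFP-. The group median of -0.80 became -0.10 length-centred, and *Sec11c* turned to 0.27. *Spcs1* shares its locus with *Gnl3* and *Glt8d1*, so that their reads may not be told apart.

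Of 12 compared genes of the COPII coat and its organisers, 3 were at least 2-fold higher and 1 lower in GFP+, with a median of 0.57. With the median ratio at 0 it was 7 higher and 1 lower, and with a common total 9 higher and 0 lower, both of 13. Over all compared genes the shares higher were 20.1% as deposited, 30.2% with the median ratio at 0 and 33.3% with a common total. The shares lower were 23.1%, 12.5% and 10.4%. *Sec16a* and *Sec16b*, scaffolds that mark the ER exit sites where COPII forms, had the highest differences of the group. *Sec16a* (mm10, as for all loci here, chromosome 2, 26409431 to 26445216, a coding gene on the minus strand) was at 31.1 FPKM in GFP+ against 6.29 in GFP-, and *Sec16b* (chromosome 1, 157506796 to 157568424, plus strand) at 29.5 FPKM in GFP+ against 6.34 in GFP-, differences of 2.14 and 2.05. The pair kept a like proportion, *Sec16b* making up 48.7% of their sum in GFP+ and 50.2% in GFP-. Length-centred they stood at 1.16 and 1.69, both still past the rule.

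The cargo-binding subunit *Sec24b* was at 19.7 FPKM in GFP+ against 7.36 in GFP- (1.31, but 0.85 length-centred), and its relatives *Sec24c* (84.4 FPKM in GFP+ against 49.1 in GFP-), *Sec24d* (33.3 FPKM in GFP+ against 22.0 in GFP-) and *Sec24a* (3.26 FPKM in GFP+ against 2.29 in GFP-) were above 0 without passing the rule. The inner-coat partners *Sec23a* (27.1 FPKM in GFP+ against 31.9 in GFP-) and *Sec23b* (72.4 FPKM in GFP+ against 75.2 in GFP-) were at like levels in both libraries. In the outer coat, *Sec31a* was at 132 FPKM in GFP+ against 88.9 in GFP- (0.56), while its partner *Sec13* (chromosome 6, 113728052 to 113740681) was at 116 FPKM in GFP+ against 339 in GFP- (-1.54). The pair that builds the cage thus stood on opposite sides of 0, as it did under all 3 other scalings, though *Sec31a* did not pass the rule as deposited. *Sec13*, which also serves in the nuclear pore, has a transcript of 1.35 kb and *Sec31a* one of 4.23 kb, and length-centred they stood at -0.65 and 0.29. *Sec31b* stayed below 1 FPKM. The GTPase *Sar1a*, which starts the coat, was at 74.8 FPKM in GFP+ against 56.1 in GFP-, and *Sec23ip*, a Sec23 partner, at 18.4 FPKM in GFP+ against 11.7 in GFP-.

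The p24 family loads and sorts cargo at both coats. As deposited 9 of its 10 compared genes were below 0, against 7 with the median ratio at 0, 5 with a common total and 4 length-centred. Of all compared genes 46.2% were above 0 as deposited, 61.0% with the median ratio at 0 and 64.3% with a common total. Length centring sets the median of all genes to 0. The median transcript length of the family was 1.47 kb, and of all genes from 1 to 2 kb 23.3% were above 0 as deposited. *Tmed9* was at 70.4 FPKM in GFP+ against 169 in GFP- (-1.25) and *Tmed1* at 17.5 FPKM in GFP+ against 43.3 in GFP- (-1.26). Neither call held with the median ratio at 0 (-0.75 for *Tmed9* and -0.78 for *Tmed1*), with a common total (-0.64 and -0.66) or length-centred (-0.36 and -0.37). *Tmed5*, *Tmed2*, *Tmed6*, *Tmed3*, *Tmed10* and *Tmed7* lay between -0.90 and -0.41, and *Tmed4*, the highest of the family, was at 232 FPKM in GFP+ against 235 in GFP- (-0.02). *Tmed9* and *Tmed4* belong to one subfamily, in which *Tmed4* made up 76.7% of the summed FPKM in GFP+ and 58.2% in GFP-. *Tmed11* was listed at 0 in both. *Tmed1* shares a merged locus with *Dnm2*, which runs on the other strand.

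*Tmed8*, which carries the family's name, was the exception (chromosome 12, 87166242 to 87200229, a coding gene on the minus strand). It was at 16.3 FPKM in GFP+ against 0.277 in GFP-, a ratio of 58.9 and a difference of 3.76. Length-centred it stood at 2.93, the 12th highest of the 558 genes in its length class. The low steps of the FPKM values put 1 FPKM of a 1 kb transcript at about 59.7 fragments in GFP+ and 58.6 in GFP-, so that the GFP- value rests on roughly 120 fragments. *Samd15*, which overlaps it on the opposite strand, was at 0.161 FPKM in GFP+ and 0 in GFP-, and the neighbour *Gstz1* was at 89.8 FPKM in GFP+ against 80.6 in GFP-.

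No lectin or KDEL receptor gene passed the rule as deposited. *Lman1*, the ERGIC-53 receptor for glycoproteins, was at 43.6 FPKM in GFP+ against 53.0 in GFP-, *Lman2* at 86.7 FPKM in GFP+ against 113 in GFP-, and *Lman2l* at 11.6 FPKM in GFP+ against 7.18 in GFP- (0.63, but 1.09 with the median ratio at 0 and 1.21 with a common total, past the rule). *Kdelr2* was at 176 FPKM in GFP+ against 177 in GFP-, *Kdelr1* at 48.7 FPKM in GFP+ against 88.3 in GFP- (-0.85), and *Kdelr3* at 3.90 FPKM in GFP+ against 6.22 in GFP-. *Kdelr2* made up 77.0% of the 3 receptors' sum in GFP+ and 65.2% in GFP-. Among 7 SNAREs of ER-Golgi fusion, *Sec22a* was 2-fold lower at 10.9 FPKM in GFP+ against 26.0 in GFP- (-1.18). It was past the rule length-centred at -1.37, but not with the median ratio at 0 (-0.72), a common total (-0.61) or a pseudocount of 5. *Sec22b*, the family member with a known fusion role, was at 61.3 FPKM in GFP+ against 49.6 in GFP- and *Sec22c* at 2.58 FPKM in GFP+ against 1.73 in GFP-. *Gosr1* had the highest difference of the group (31.1 FPKM in GFP+ against 16.3 in GFP-, 0.89, but 1.37 with the median ratio at 0 and 1.49 with a common total), followed by *Gosr2* (66.7 FPKM in GFP+ against 50.2 in GFP-), while *Bet1* was at 25.4 FPKM in GFP+ against 35.7 in GFP- and *Bet1l* at 16.2 FPKM in GFP+ against 18.7 in GFP-.

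The subunits of COPI act together as one coat. Of the large subunits, *Copa* (160 FPKM in GFP+ against 116 in GFP-), *Copb1* (87.1 FPKM in GFP+ against 70.1 in GFP-), *Copb2* (109 FPKM in GFP+ against 90.1 in GFP-) and *Copg1* (137 FPKM in GFP+ against 80.3 in GFP-) had differences from 0.27 to 0.77, while the second gamma subunit *Copg2* was below 0. The small subunits *Cope* (243 FPKM in GFP+ against 450 in GFP-) and *Copz1* (168 FPKM in GFP+ against 326 in GFP-) stood at -0.89 and -0.95. None passed the rule as deposited. *Copg1* did with the median ratio at 0 (1.27) and with a common total (1.39), and *Copa* with a common total (1.08). Transcripts of the first 4 are 3.05 to 4.62 kb and those of the small subunits 1.30 and 2.44 kb, and length-centred the 6 ran from -0.58 for *Copz1* to 0.50 for *Copg1*. The alternative gamma subunit *Copg2* was at 11.5 FPKM in GFP+ against 22.8 in GFP- (-0.93, and -1.12 length-centred). It made up 7.71% of the gamma sum in GFP+ and 22.1% in GFP-, a shift that does not depend on how the libraries are scaled. *Copg2* has a shared locus and overlaps *Mest* on the other strand, so its level and share may hold reads of another gene. *Copz2* was below 1 FPKM in both libraries.

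Arf GTPases recruit COPI and the adaptors to membranes. *Arf1* was the most abundant member of all in both libraries, at 437 FPKM in GFP+ against 618 in GFP- (-0.50). *Arf3*, its close relative at the trans-Golgi, was at 123 FPKM in GFP+ against 48.4 in GFP- (1.32, or 0.96 length-centred), and *Arf2* at 12.9 FPKM in GFP+ against 11.9 in GFP-. *Arf3* thus made up 21.4% of these 3 in GFP+ and 7.13% in GFP-. *Arf4* (136 FPKM in GFP+ against 251 in GFP-) and *Arf5* (243 FPKM in GFP+ against 430 in GFP-) stood at -0.88 and -0.82, with *Arf4* at 35.9% of the pair in GFP+ and 36.8% in GFP-. *Arf6*, which works at the plasma membrane and endosomes, was at 11.9 FPKM in GFP+ against 44.0 in GFP- (-1.80), the lowest difference of any member as deposited. It was the single member 2-fold lower with a common total, at -1.22, and stood at -0.99 length-centred.

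**Figure D3:**
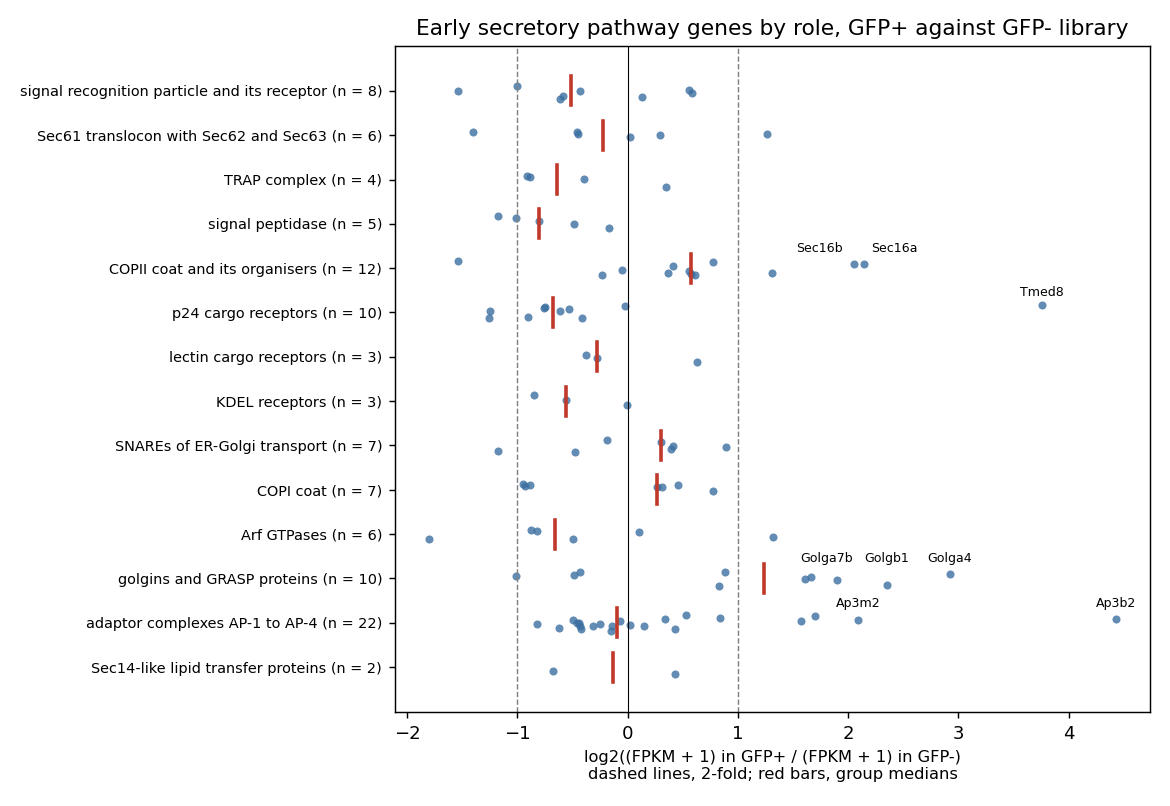
Difference between the GFP+ and GFP- library for the 105 compared members by role, 1 point per gene, with red bars at group medians and dashed lines at 2-fold. Golgins and GRASP proteins have the highest median (1.24) and signal peptidase genes the lowest (-0.80), while *Ap3b2* and *Tmed8* stand apart from their groups.

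Of 10 golgin and GRASP genes, 5 passed the 2-fold rule upwards as deposited and 1 downwards, with a median of 1.24. With the median ratio at 0 and with a common total 7 were higher and 0 lower. All compared genes gave 20.1% higher and 23.1% lower as deposited. They gave 30.2% and 12.5% with the median ratio at 0, and 33.3% and 10.4% with a common total. *Golga4*, golgin-245 of the trans-Golgi (chromosome 9, 118506318 to 118582519, plus strand), was at 41.2 FPKM in GFP+ against 4.58 in GFP- (2.92). *Golgb1*, the giant golgin giantin (chromosome 16, 36880519 to 36933085), was at 9.06 FPKM in GFP+ against 0.969 in GFP- (2.35). The cis-Golgi tether *Golga2* (GM130) was at 25.5 FPKM in GFP+ against 7.41 in GFP- (1.66), *Golga3* at 11.8 FPKM in GFP+ against 3.21 in GFP- (1.61) and *Golga7b* at 12.5 FPKM in GFP+ against 2.61 in GFP- (1.90).

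*Golga5*, golgin-84, was the most abundant of the group in GFP+ at 198 FPKM, against 111 FPKM in GFP- (0.83), and *Golga1*, golgin-97, was at 13.0 FPKM in GFP+ against 6.65 in GFP-. Coiled-coil golgins have long transcripts, 7.58 kb for *Golga4* and 11.0 kb for *Golgb1*. Length-centred, *Golga4* (2.08), *Golga7b* (2.09), *Golga2* (1.39) and *Golgb1* (1.37) remained past the rule, *Golga3* fell short of it at 0.62, and the group median was 0.75. *Golga7b* and *Golga7* are not tethers but partners of palmitoylating enzymes, and *Golga7* was at 61.6 FPKM in GFP+ against 87.2 in GFP-. The stacking proteins *Gorasp1* (14.0 FPKM in GFP+ against 29.2 in GFP-, -1.01) and *Gorasp2* (98.0 FPKM in GFP+ against 132 in GFP-, -0.43) were below 0. Over members that reached 10 FPKM in each library the group median was -0.46, since that filter removes the golgins that were low in GFP-.

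The adaptor complexes held the widest difference of any member. Of 22 compared adaptor genes 4 were at least 2-fold higher and 0 lower, with a median of -0.10 that turned to 0.38 with the median ratio at 0 and 0.49 with a common total. The number higher was 5 with the median ratio at 0, 7 with a common total, where *Ap1b1*, *Ap2a2* and *Ap4e1* also passed, and 3 length-centred. Of all compared genes, 20.1% were higher as deposited, 30.2% with the median ratio at 0, 33.3% with a common total and 18.4% length-centred. *Ap3b2* (chromosome 7, 81460399 to 81493925, a coding gene on the minus strand), the neuronal beta subunit of AP-3, was at 27.8 FPKM in GFP+ against 0.337 in GFP-, a ratio of 82.5 and a difference of 4.43. Its GFP- value rests on roughly 75 fragments. The gene ranked 118th highest of the 11868 compared, and 7th of 557 in its length class (4.24 length-centred). *Cpeb1*, whose gene begins 4.93 kb away, was at 3.08 FPKM in GFP+ against 0.00554 in GFP-.

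*Ap3m2* (chromosome 8, 22787354 to 22805654, minus strand), the neuronal mu subunit, was at 6.11 FPKM in GFP+ against 0.666 in GFP- (2.09, and 2.14 length-centred). The delta subunit *Ap3d1*, shared by both forms of AP-3, was at 62.9 FPKM in GFP+ against 18.6 in GFP- (1.70, and 1.34 length-centred). Of the ubiquitous subunits, *Ap3b1* was at 40.2 FPKM in GFP+ against 42.1 in GFP-, *Ap3m1* at 16.2 FPKM in GFP+ against 14.4 in GFP-, *Ap3s1* at 26.3 FPKM in GFP+ against 37.7 in GFP- and *Ap3s2* at 13.1 FPKM in GFP+ against 16.5 in GFP-. None of these 4 passed the rule under any of the 4 scalings. *Ap3b2* made up 40.9% of the beta sum in GFP+ and 0.795% in GFP-, and *Ap3m2* 27.4% of the mu sum in GFP+ and 4.41% in GFP-.

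For AP-1, which sorts at the trans-Golgi, the listed levels of the 2 gamma genes differed in proportion. *Ap1g1* was at 35.4 FPKM in GFP+ against 11.2 in GFP- (1.57, but 0.74 length-centred). *Ap1g2* was at 41.8 FPKM in GFP+ against 56.1 in GFP- (-0.42, and -0.15 length-centred). *Ap1g1* thus made up 45.9% of the pair in GFP+ and 16.7% in GFP-. Both genes have a locus shared with another row, so their levels and shares may hold reads of other genes. The beta subunit *Ap1b1* was at 95.3 FPKM in GFP+ against 52.7 in GFP- (0.84, but 1.34 with the median ratio at 0 and 1.46 with a common total). The epithelial mu subunit *Ap1m2* was at 116 FPKM in GFP+ against 159 in GFP- and the common *Ap1m1* at 30.4 FPKM in GFP+ against 36.5 in GFP-, and *Ap1m2* made up 79.2% of that pair in GFP+ and 81.4% in GFP-. *Ap1s1* was at 178 FPKM in GFP+ against 273 in GFP-, while *Ap1s2* and *Ap1s3* were below 1 FPKM. The endocytic AP-2 genes lay between -0.82 for *Ap2s1* (90.0 FPKM in GFP+ against 159 in GFP-) and 0.43 for *Ap2a2* (52.7 FPKM in GFP+ against 38.8 in GFP-), and the 4 AP-4 genes between -0.43 and 0.53, at 3.11 to 12.7 FPKM in GFP+ and 1.84 to 14.1 FPKM in GFP-.

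**Figure D4:**
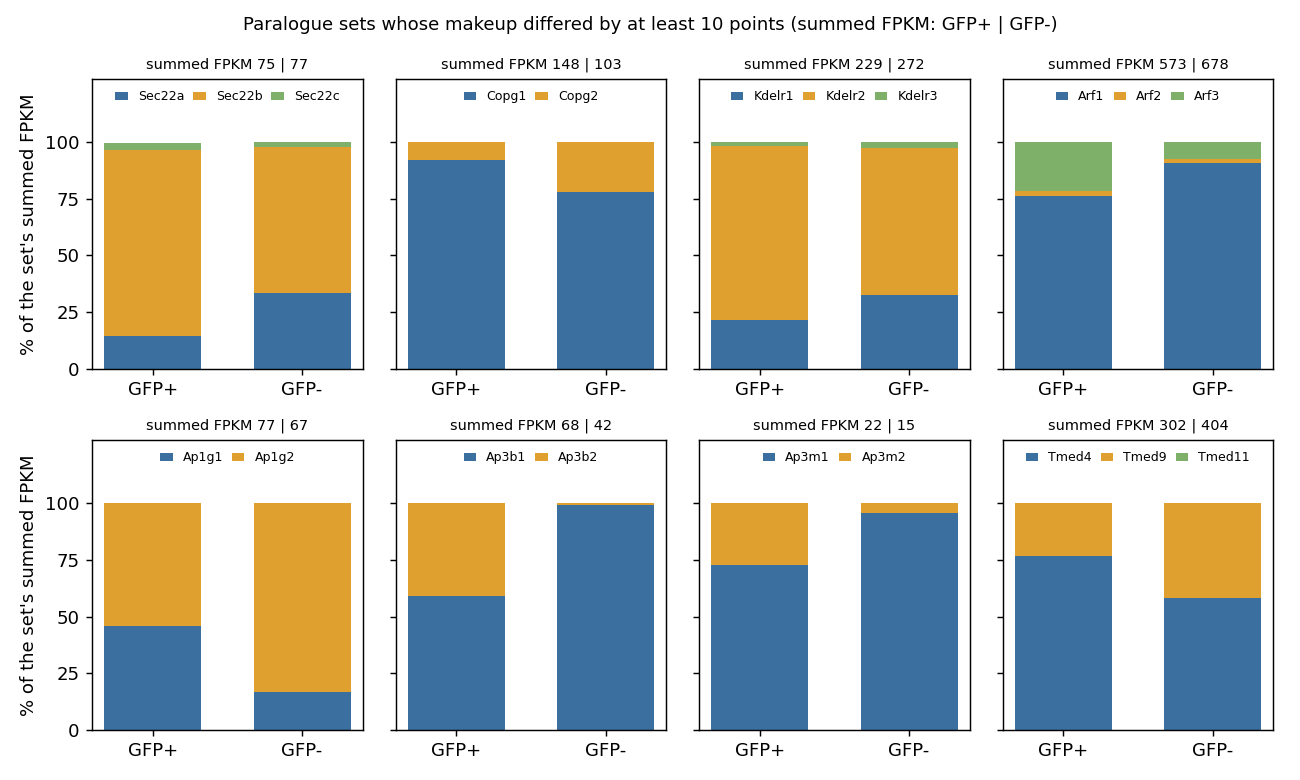
Share of each paralogue in the summed FPKM of its set (%), GFP+ left of GFP-, for the 8 of 28 sets whose makeup differed by at least 10 points, with each set's summed FPKM above its panel. *Ap3b2* makes up 40.9% of the AP-3 beta sum in GFP+ and 0.795% in GFP-, and *Ap1g1* 45.9% of the AP-1 gamma sum in GFP+ and 16.7% in GFP-.

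Paralogue shares do not depend on the scaling between the libraries. Of 28 sets with at least 5 FPKM in both, 8 differed in makeup by at least 10 points: those of *Ap3b2*, *Ap1g1*, *Ap3m2*, *Sec22a*, *Tmed9*, *Arf1*, *Copg2* and *Kdelr1*, in falling order. In the other 20 sets the shares were closer, for example *Sec23b* at 72.8% of its pair in GFP+ and 70.2% in GFP- and *Sec61a1* at 96.3% of its pair in GFP+ and 94.8% in GFP-. Members of a set can differ in length, as *Ap1g1* (6.90 kb) and *Ap1g2* (2.67 kb) do, while *Ap3b2* and *Ap3b1* (3.80 and 4.02 kb) do not differ much.

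Of the Sec14-like lipid transfer genes, *Sec14l1* was at 20.3 FPKM in GFP+ against 14.8 in GFP- and *Sec14l2* at 4.41 FPKM in GFP+ against 7.68 in GFP-. *Sec14l3*, *Sec14l4* and *Sec14l5* were below 1 FPKM, with *Sec14l4* at 0.628 FPKM in GFP+ against 0.0118 in GFP-. *Sec1* was listed at 0 in GFP+ and 0.0143 FPKM in GFP-, and *Lman1l* at 0.0214 FPKM in GFP+ and 0 in GFP-, each under the value of 3 fragments. In all, 11 of the 116 members were below 1 FPKM in both libraries. In the annotation 33 members overlap a second coding gene, and in the files 20 have a locus shared with another row. Among these 20 are *Srpr*, *Golgb1*, *Gorasp1*, *Copg2*, *Ap1g1* and *Ap1g2*. The sources used here do not say whether counting used strand, so reads of such pairs may not be told apart.

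A list of 74 other genes of the pathway was compared in the same way. Of the 73 above the minimum, 11 were at least 2-fold higher and 12 lower in GFP+, with a median of -0.12. Over all compared genes 20.1% were 2-fold higher and 23.1% lower, and the median was also -0.12. *Tusc3*, a subunit of the enzyme that attaches N-glycans, was at 135 FPKM in GFP+ against 28.0 in GFP- (2.23, and 3.04 length-centred), while its paralogue *Magt1* was at 26.7 FPKM in GFP+ against 26.6 in GFP-. *Mia3* (TANGO1), which loads bulky cargo at ER exit sites, was at 39.5 FPKM in GFP+ against 7 in GFP- (2.34) and its relative *Mia2* at 28.1 FPKM in GFP+ against 8.37 in GFP- (1.63). *Ctage5*, a related entry listed apart, had higher levels and did not pass the rule, at 89.8 FPKM in GFP+ against 69.6 in GFP- (0.36). The exchange factors that activate Arf proteins were higher too, *Arfgef2* at 25.0 FPKM in GFP+ against 4.45 in GFP- (2.25), *Gbf1* at 30.3 FPKM in GFP+ against 7.61 in GFP- (1.86) and *Arfgef1* at 20.9 FPKM in GFP+ against 5.73 in GFP- (1.70, but 0.86 length-centred).

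Clathrin heavy chain *Cltc* was at 261 FPKM in GFP+ against 62.3 in GFP- (2.05), while the light chains *Clta* and *Cltb* stood at -0.36 and -0.50. The tether *Uso1* (1.16), the TRAPP subunits *Trappc8* (1.15) and *Trappc11* (1.07) and the sorting adaptor *Gga3* (1.16) completed the higher genes, and all 4 fell short of the rule length-centred. The lower genes were *Sar1b*, the second Sar1 GTPase, at 97.2 FPKM in GFP+ against 216 in GFP- (-1.14), with *Ostc*, *Ost4*, *Ergic3*, *Cnih4*, *Yif1a*, *Yif1b*, *Use1*, *Bnip1*, *Trappc4*, *Trappc5* and *Trappc6a*, the last at 89.4 FPKM in GFP+ against 349 in GFP- (-1.95). Of these 12, *Cnih4* (-1.59) and *Trappc5* (-1.48) remained past the rule length-centred. None of the 8 COG tethering genes was called as deposited.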

How the data were processed

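Polyadenylated RNA of the GFP+ and GFP- fractions was sequenced as 1 library each. The deposited values are FPKM with lower and upper confidence bounds, per the file headers. Per the submitters' processing notes, the tools were FastQC, TopHat2 0.7, Cufflinks and Cuffdiff, with mm10 as the build. The sources used here do not give the annotation, the library scaling, the use of strand or how multiply mapping reads were handled. The lower bound was 0 in both libraries for all 117 member rows, and the upper bound was a median of 2.32 times the FPKM in GFP+ and 2.33 times in GFP-, so the bounds of the libraries overlap for each member.

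FPKM was summed per symbol. The 5 rows without an estimate in GFP+ (status HIDATA) were left out, and all member rows had the status OK. The summed FPKM and the common total of both libraries therefore lack these 5 rows. Differences used a pseudocount of 1, which understates those of low genes, and a minimum of 1 FPKM in the higher library. Of the 105 members compared, 5 were below 1 FPKM in the other library, so that the sign of their difference was fixed by the filter. With 1 library per fraction, 2-fold and 4-fold rules of size replace a test. Members, role groups, paralogue sets and lists were chosen with earlier results of these data known. The text names members past 2-fold, up to 3 at each end of a role group, small groups in full, and paralogues whose share differed by 10 points. Other members were added after their values were seen. Transcript lengths are the longest in the GENCODE M21 basic set, found for all 116 members and 94.0% of compared genes. Locus starts, counted from 0 in the files, were shifted to 1. Total counts per library were not analysed here, and depth was estimated from the most populated low step of FPKM times kilobases among genes with a single transcript, taken as 1 fragment (57 genes in GFP+ and 100 in GFP-), with 3 fragments as the floor for a value of 0. These figures cover counting error only, since amplified fragments are not independent molecules. Promoter sequences are those of the RefSeq table (GRCm38.p6), which matched 97 members. The size rule and length centring were tested on simulated data. Python 3.11.15, numpy 2.4.6, pandas 2.3.3, scipy 1.17.1 and matplotlib 3.10.9 were used. Alternatives were pseudocounts of 0.1 and 5, other filters, 2 scalings, joined or repeated rows left out, and length centring.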

Additional observations from a re-analysis of the deposited data

How the results depend on the processing

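No paired analysis was possible because each fraction has 1 library, and for the same reason no library could be left out. Depth limits little for the 82 members with at least 10 FPKM in both libraries. These hold only 4 of the 15 members 2-fold higher and 0 of the 7 at least 4-fold higher, whose GFP- values were all lower. With a pseudocount of 5, 14 members were 2-fold higher (13.3%, now above the 10.1% of all genes). On that scale 7 were 2-fold lower (against 16.9% of all genes) and 3 were 4-fold higher (against 2.97%), and the golgin and GRASP median was 0.92. A larger pseudocount shrinks the differences of low genes most, and the members were better expressed than all genes. With at least 10 FPKM in both libraries, 4 members and 4 other pathway genes were 2-fold higher, where 7.60% of all such genes were. Of the members 0 were 4-fold higher (1.78% of all such genes), because the filter removes genes low in GFP-, and the golgin and GRASP median was -0.46. With the median ratio set to 0, 27 members were 2-fold higher, 12 were 4-fold higher and 3 were 2-fold lower, the COPII median was 1.06, and 3 other pathway genes were lower. Of all genes 30.2% were 2-fold higher, 10.8% 4-fold higher and 12.5% 2-fold lower in this setting. With a common total, 34 members were 2-fold higher, 12 were 4-fold higher and 1 was 2-fold lower, the COPII median was 1.18, and 18 other pathway genes were higher and 3 lower. Of all genes 33.3% were then 2-fold higher, 11.8% 4-fold higher and 10.4% 2-fold lower. Length-centred, 5 members and 4 other pathway genes were lower, where 14.2% of all genes were, the golgin and GRASP median was 0.75, and *Sec11c* turned to 0.27. Setting the median ratio to 0 and using a common total raise all GFP+ values by one factor, so the counts move upwards by construction. The part of transcript length in the length-centred shifts was not tested. The 15 members 2-fold higher as deposited remained so under both scalings and with a pseudocount of 0.1. These settings can only widen a positive difference, so that outcome was fixed beforehand. Of the 15, 14 were still 2-fold higher with a pseudocount of 5, 10 length-centred and 4 with at least 10 FPKM in both libraries. The other filters, the pseudocount of 0.1 and leaving out joined or repeated rows moved no count of members by more than 1.5 times.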

Other observations

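Next to the members at least 4-fold higher in GFP+, some neighbours differed in the same direction and others did not. *Itga9*, 24.2 kb from *Golga4*, was at 3.87 FPKM in GFP+ against 0.0490 in GFP- (2.22), and *Kat6a*, 53.9 kb from *Ap3m2*, at 2.04 FPKM in GFP+ against 0.722 in GFP- (0.82). *Inpp5e*, 0.228 kb from *Sec16a*, was at 10.3 FPKM in GFP+ against 5.96 in GFP- (0.71), while *Plat*, 4.51 kb from *Ap3m2*, was at 4.85 FPKM in GFP+ against 6.22 in GFP- (-0.30).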
